A study of Malus domestica with 2 samples.

Results

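Cytochrome P450 enzymes and 2-oxoglutarate-dependent oxygenases were examined in the pedicels of apple, the stalks on which the fruits of a cluster sit. Gene models belonged to the group when their annotation, in the deposited table of all gene models or on the deposited CP and LP sheets of differing genes, named a cytochrome P450, 2-oxoglutarate or a 2OG-Fe oxygenase. They also had to have at least 1 mapped sequence in the table or a row on a sheet. The words matched 505 of 63541 gene models, and 88 of these met the second condition, 36 P450 models and 52 oxygenase models. The other matches were 415 models with 0 sequences and no row on a sheet, and 2 models set aside because their sheet annotation places them in flavonol or ethylene synthesis. The members were thus chosen by their counts and sheet rows, and which library or sheet a member favours is given below as a description.

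The study compared lateral pedicels with central pedicels of Malus domestica cultivar Saika, which the series title calls self-abscising. Both kinds of pedicel share that cultivar, and the labels give no treatment, sampling time or number of plants. Messenger RNA was sequenced on a Roche 454 GS-FLX with 1 library per kind of pedicel, so no difference has a replicate check. In the lateral library 18368 sequences mapped to 13457 gene models, and in the central library 18483 mapped to 13544. The file headers name trimmed contigs as what was mapped, so the counted units are called sequences here, and the reads that each contig stands for are unknown.

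P450 enzymes are heme-containing monooxygenases, mostly anchored in the endoplasmic reticulum, that take electrons from NADPH-P450 reductase and in some reactions from cytochrome b5. In plants they hydroxylate phenylpropanoids, flavonoids, terpenoids and fatty acids, make brassinosteroids and inactivate abscisic acid and jasmonate. The 2-oxoglutarate oxygenases are mostly soluble enzymes with non-heme iron that oxidise their substrate while turning 2-oxoglutarate into succinate. They act late in gibberellin synthesis, in anthocyanin and flavonol synthesis, in hormone breakdown and in the hydroxylation of proline in wall proteins.

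The name of the group was first set against the annotation. The annotation Cytochrome P450 was given to 296 models of the whole table and 2OG-Fe(II) oxygenase to 200. The words also matched 1 model of the 2-oxoglutarate dehydrogenase E1 component, an enzyme of the citric acid cycle and no oxygenase, and with 0 sequences it was not a member. Another 8 members, 4 on each sheet, were reached through the sheet annotation alone, so P450 and oxygenase models on neither sheet can be missing where the table carries no such annotation. Of the 52 oxygenase members, 48 carried the protein-family signature PF03171, and 16 of the 36 P450 members carried PF00067. Other signatures annotated as P450 were G3DSA:1.10.630.10 in 10, SSF48264 in 4 and PTHR19383 in 2 P450 members, and 4 carried none.

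The members were seen at very low counts. The 79 lateral sequences of all members made up 0.430% of the lateral library (95% exact interval 0.341% to 0.536%), and the 78 central sequences made up 0.422% of the central library (95% exact interval 0.334% to 0.526%). Of the 88 members, 86 had a sequence, 62 in the lateral and 65 in the central library. The number of members with exactly 1 sequence over both libraries was 38, split into 19 lateral and 19 central. These were 44.2% of the members with a sequence, against 44.0% of all gene models with a sequence. At this depth a count of 0 allows up to 3 sequences, a share of 0.0163% of the lateral and 0.0162% of the central library. No member had more than 3 sequences in a library, so no fold is given for any single member. Counting error alone enters these intervals and limits, which treat contigs as independent although several can stem from 1 transcript.

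The P450 members held 31 lateral and 34 central sequences, 0.169% (0.115% to 0.239%) of the lateral and 0.184% (0.127% to 0.257%) of the central library. The oxygenase members held 48 lateral and 44 central sequences, 0.261% (0.193% to 0.346%) and 0.238% (0.173% to 0.319%) of these libraries. For both families the 95% exact intervals of the libraries overlapped over most of their width. Sequences in both libraries were found for 12 of 36 P450 members (33.3%) and 29 of 50 oxygenase members with a sequence (58.0%), against 47.2% of all gene models with a sequence. Models with exactly 1 sequence cannot be in both libraries. They made up 52.8% of these P450 and 38.0% of these oxygenase members, against 44.0% of all gene models with a sequence. The most frequent count among oxygenases was 1 sequence in each library, in 21 of 50 models with a sequence. That count was found in 3 of 36 P450 models and in 4417 of all 18337 gene models with a sequence.

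**Figure D1:**
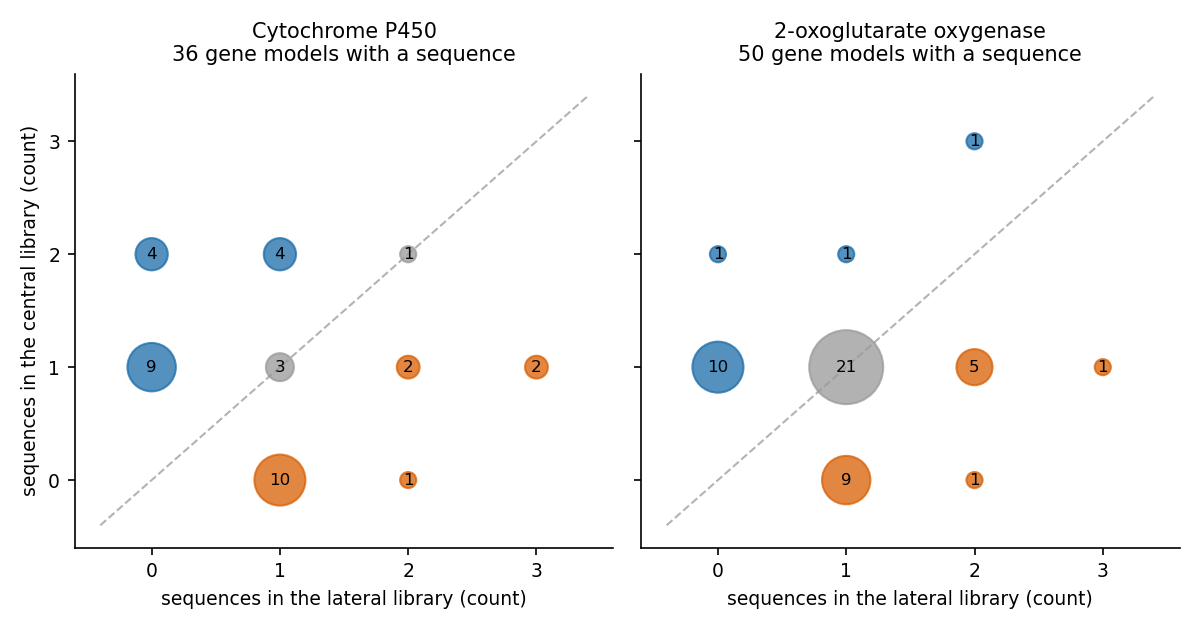
Number of gene models (figure in each circle, area to scale) at each pair of counts, with the lateral library on the x axis and the central library on the y axis, for P450 members at left and 2-oxoglutarate oxygenase members at right; the dashed line marks equal counts. Orange circles have more sequences in lateral pedicels, blue circles more in central pedicels, and the 21 oxygenase models with 1 sequence in each library form the largest circle.

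Direction was close to even for the members as a whole. Of the 86, 31 had more sequences in lateral pedicels, 36.0% against a background of 35.4% of all gene models with a sequence, and 30 had more in central pedicels, 34.9% against 36.2%. Counts were equal for 25 members, 29.1% against 28.4%. Of the P450 members 15 had more in lateral and 17 more in central pedicels, and 4 were equal. Of the oxygenase members 16 had more in lateral and 13 more in central pedicels, and 21 were equal. The median log2 ratio of lateral over central, with 0.5 added to each scaled count, was 0.0060 over the 86 members and 0.0060 over all 18337 gene models, which is the value of a gene model with 1 sequence in each library.

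**Figure D2:**
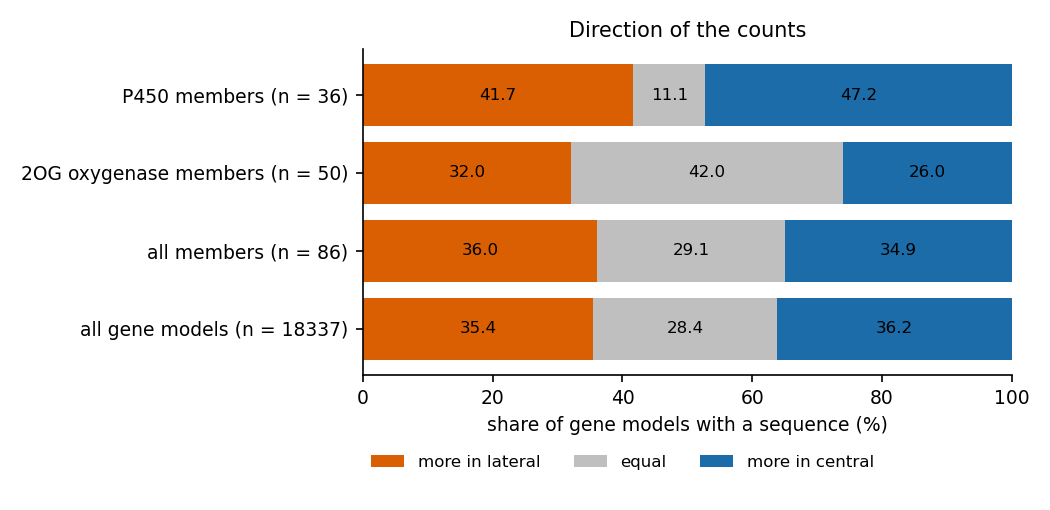
Share of gene models with a sequence (x axis, percent) that had more sequences in the lateral library (orange), equal counts (grey) or more in the central library (blue), for each family, all 86 members and all 18337 gene models. The members split 36.0%, 29.1% and 34.9%, beside 35.4%, 28.4% and 36.2% of all gene models.

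No member could be tested at the minimum of 10 sequences over both libraries, since the member with most sequences had 5. Of the 24 gene models that reached it, the two-sided Fisher exact test with Benjamini-Hochberg adjustment called 0, a background of 0.0%, and 1 had an unadjusted p under 0.05. Without a minimum the test again called 0 of 18337 gene models (0.0%), with 4 at an unadjusted p under 0.05 and 0 of them members. The smallest unadjusted Fisher exact p of a member was 0.248. The test is one between libraries, not between kinds of pedicel, and at this depth it says nothing on whether a member differed. In the authors' deposited table, Kal's Z-test has an FDR under 0.05 for 31 members higher in lateral pedicels, beside 33.7% of all gene models with a sequence, and for 30 higher in central pedicels, beside 34.0%. These are all 61 members with unequal counts, 1 sequence against 0 included, so the FDR tells no more than that the counts differed.

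The 14 members on the authors' sheets carry a more detailed annotation. The LP sheet held 7 of them, 1 P450 and 6 oxygenases, and the CP sheet 7, 4 P450 and 3 oxygenases. Over all gene models, with or without a sequence, the LP sheet lists 1.17% and the CP sheet 1.33%. Members needed a sequence or a sheet row, so these shares are no like background for them. The rule for members used these sheets, so the split is a description of what the authors listed. The sheets were made with NOISeq, per the file headers, and how their FDR was computed is not stated there. In the authors' deposited sheets the largest FDR of a member was 6.00e-05, that of the CP oxygenase MDP0000406399, within a list that extends to 0.000172.

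Among hormone-related P450 members, MDP0000127773 on the CP sheet had 0 sequences in lateral pedicels and 2 in central pedicels, an RPKM of 0 and 71.9. Both its sequences mapped uniquely. The sheet annotates it as a P450 superfamily protein with the Arabidopsis match AT5G05690. In Arabidopsis that locus is known as CPD, a P450 of brassinosteroid synthesis. The deposited FDR on the authors' CP sheet was 1.39e-06. The words searched for other brassinosteroid genes found 16 models, 4 of them with a sequence, with 1 lateral and 5 central sequences in all. Both sheet entries among them were on the CP sheet. These were MDP0000157809, of the BZR1 family of brassinosteroid-response transcription factors, with 0 lateral and 2 central sequences, and MDP0000545310, a brassinosteroid-responsive RING-H2 protein, with 0 lateral and 1 central sequence. None of the counts of these single models exceeds what a count of 0 allows.

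The sheet annotation placed 2 members in the CYP78A subfamily, both on the CP sheet. A subfamily is named on the sheets alone, so the 31 P450 members on neither sheet could include others. CYP78A6, which in Arabidopsis promotes seed growth, was MDP0000140803, with 2 lateral and 2 central sequences and an RPKM of 67.6 in lateral and 67.2 in central pedicels. It was among the members with most sequences, and its counts in the 2 libraries were equal. The CYP78A10 homolog MDP0000270602 had 1 lateral and 0 central sequences, an RPKM of 35.7 and 0. In the authors' deposited sheets the FDR was 2.04e-06 for the first and 2.58e-08 for the second. For neither did the whole table hold more sequences in central pedicels.

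Among P450 members of secondary metabolism, MDP0000286933 was on the CP sheet with the Arabidopsis match AT5G07990, the locus known in Arabidopsis as flavonoid 3'-hydroxylase. It had 2 lateral and 1 central sequences, an RPKM of 50.5 and 25.1. It was the only member with a ratio in the authors' deposited table of log2 ratios, at 2.49. That table's first line states lateral over central, which matches the order of these counts, but a CP row and a positive ratio go together for all 78 CP genes with a ratio, and the 113 LP genes with a ratio are all negative. The direction of the deposited ratio is therefore unknown here. CYP82C4, which in Arabidopsis hydroxylates coumarins and is induced by iron deficiency, was the only P450 member on the LP sheet. Its model MDP0000221435 had 2 lateral and 1 central sequences, an RPKM of 69.3 and 34.4, and an FDR of 8.63e-07 in the authors' deposited LP sheet.

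Among the oxygenases with a named function, leucoanthocyanidin dioxygenase, which makes anthocyanidins from leucoanthocyanidins, was on the CP sheet. Its model MDP0000240641 had 1 lateral and 0 central sequences, an RPKM of 50.7 and 0, and the lowest FDR of the CP members in the authors' deposited sheet, 3.80e-11. The 2 models set aside by annotation were flavonol synthase 1 on the CP sheet, MDP0000681936, with 0 sequences in either library, and the ethylene-forming enzyme on the LP sheet, MDP0000453114, with 0 lateral and 1 central sequence. The words searched for the phenylpropanoid and flavonoid pathway found 34 models, flavonol synthase 1 among them, 15 with a sequence, with 18 lateral and 13 central sequences and 4 LP and 7 CP entries. These included 2 cinnamate 4-hydroxylases, the P450 that performs the second step of the pathway. MDP0000229348 had 3 lateral and 3 central sequences and MDP0000576346 had 1 and 0, and both were CP entries. Dihydroflavonol 4-reductase, MDP0000494976, which acts just before leucoanthocyanidin dioxygenase, was also a CP entry, with 3 lateral and 2 central sequences.

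The other 8 oxygenases on the sheets carried the general superfamily annotation, 6 of them on the LP sheet. MDP0000503940 is matched to AT3G11180, in Arabidopsis an oxygenase that hydroxylates and so inactivates jasmonate, and had 1 sequence in each library. Its RPKM was 50.0 in lateral and 49.7 in central pedicels, and its FDR in the authors' deposited LP sheet was 5.17e-07. A pair of LP models shared the match AT1G52800, so they are no independent cases. Of these, MDP0000193721 had 1 lateral and 0 central sequences and MDP0000477453 had 1 in each library. MDP0000091523 had 1 lateral and 0 central sequences, which in a model of 522 bases gave an RPKM of 104 and 0. The remaining LP oxygenases, MDP0000135784 and MDP0000227143, had 0 sequences in both libraries, although the authors' deposited LP sheet gives them an FDR of 0 and 4.19e-06. On the CP sheet MDP0000644549 had 0 lateral and 1 central sequence, which did not map uniquely, and MDP0000406399 had 1 in each library.

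Set beside the counts, the LP members comprised 3 with more sequences in lateral pedicels, 0 with more in central pedicels, 2 with equal counts and 2 with none. The CP members comprised 3 with more in lateral pedicels, 2 with more in central pedicels and 2 with equal counts. Summed, the LP members had 6 lateral and 3 central sequences, and the CP members 7 lateral and 7 central. Over all entries, the LP sheet had 233 with more in lateral and 116 with more in central pedicels, and the CP sheet 137 and 287. Of the 741 LP entries 233 had equal counts and 159 had no sequence, and of the 844 CP entries 230 and 190.

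**Figure D3:**
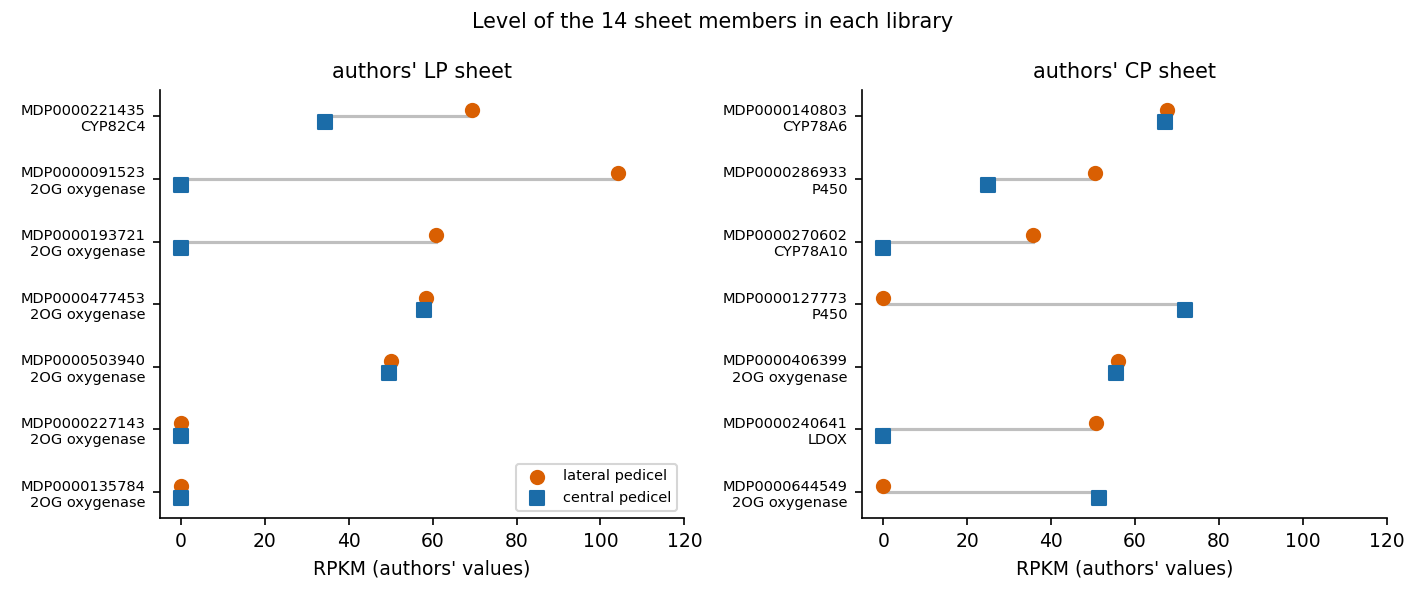
RPKM deposited by the authors (x axis) of the 14 members on their LP sheet (left) and CP sheet (right), with an orange circle for the lateral and a blue square for the central library and a grey line between them; LDOX is leucoanthocyanidin dioxygenase, and there is 1 library per group. On the CP sheet MDP0000127773 and MDP0000644549 are at 0 in lateral pedicels and MDP0000240641 and MDP0000270602 at 0 in central pedicels; on the LP sheet MDP0000091523 and MDP0000193721 are at 0 in central pedicels, 4 members have equal counts in both libraries, and 2 on the LP sheet have no sequence.

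The gene ontology terms on the sheets, which the rule did not use, followed the 2 families. The origin of the terms was not examined, so they are no independent check of the families. All 5 P450 entries carried heme binding and iron ion binding, and 7 of the 9 oxygenase entries carried the term for 2-oxoglutarate-dependent dioxygenase activity. Over all sheet entries heme binding occurred 3 times on the LP and 12 times on the CP sheet, of which 1 and 4 were members. The remaining heme-binding entries were peroxidases, cytochrome b5 proteins and a cytochrome c as well as the cinnamate 4-hydroxylases. The dioxygenase term occurred 6 times on the LP and 3 times on the CP sheet, of which 5 and 2 were members.

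The 74 members on neither sheet were known by protein domain alone. Among P450 models the highest counts were those of MDP0000679736 and MDP0000155194, each with 3 lateral and 1 central sequences. Their RPKM in lateral pedicels was 111 and 105, against 36.8 and 34.9 in central pedicels. MDP0000678982 had 2 lateral and 0 central sequences. In the other direction MDP0000131124, MDP0000147814 and MDP0000424398 each had 0 lateral and 2 central sequences, as did MDP0000127773 described above. Differences of at least 2 sequences were thus found in 3 P450 models with more in lateral and 4 with more in central pedicels. Such differences were not counted over all gene models, so these numbers have no background. The models MDP0000835140, MDP0000242569, MDP0000382336 and MDP0000259047 had 1 lateral and 2 central sequences each.

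Among oxygenases MDP0000751780 had the highest count of any member, 2 lateral and 3 central sequences. With a length of 933 bases its RPKM was 117 in lateral and 174 in central pedicels, the highest level of any member in the central library. MDP0000196102 had 3 lateral and 1 central sequences, an RPKM of 121 and 40.2. MDP0000789537 had the highest lateral level of any member, an RPKM of 125, against 62.2 in central pedicels, from 2 lateral and 1 central sequences. The same counts were found for MDP0000133105, MDP0000360447, MDP0000132504 and MDP0000320496. MDP0000180902 had 2 lateral and 0 central sequences, MDP0000319907 had 1 and 2, and MDP0000197702 had 0 and 2. Differences of at least 2 sequences were thus found in 2 oxygenase models with more in lateral and 1 with more in central pedicels, again without a background. For the members where a sequence was present, the median RPKM was 50.8 in lateral and 49.4 in central pedicels, beside 49.0 and 49.3 over all gene models.

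Detection was also counted over all annotated models of each family, without a test. Of the 296 models that the whole table annotates as P450, 32 had a sequence (10.8%), 19 with one in lateral and 22 in central pedicels. Of the 200 models annotated as 2OG-Fe(II) oxygenase, 48 had one (24.0%), 36 in lateral and 40 in central pedicels, against 28.9% of all gene models. These 48 include the ethylene-forming enzyme. Over all gene models, 18.7% of those under 1200 bases, 41.4% of those from 1200 to under 1800 bases and 54.9% of longer ones had a sequence. Of the annotated P450 models, 204 were shorter than 1200 bases. Of these short models 7 had a sequence (3.43%). From 1200 to under 1800 bases 26.7% of the P450 models and 40.7% of the oxygenase models had one. In that range the oxygenases lay close to all gene models and the P450 models below them. Because 92.2% of the lengths in the table are multiples of 3, they are mostly coding lengths. The P450 members had a median coding length of 1539 bases and the oxygenase members of 1059.

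**Figure D4:**
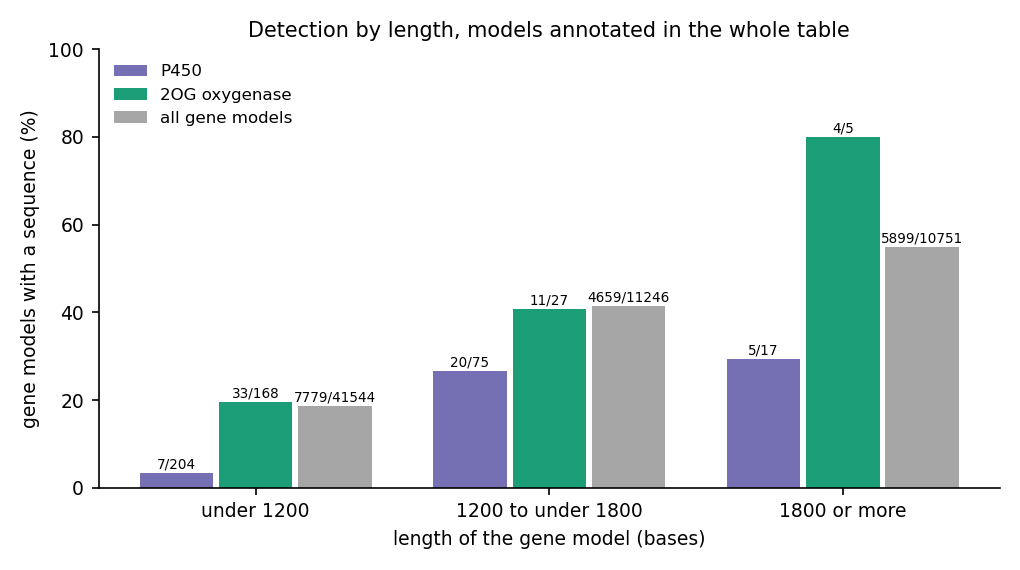
Share of gene models with at least 1 sequence in either library (y axis, percent) by length of the gene model (x axis, bases), for models annotated in the whole table as P450 (purple) or 2OG oxygenase (green) and for all gene models (grey), with the number seen over the number annotated above each bar. P450 models reach 26.7% from 1200 to under 1800 bases, where oxygenase models reach 40.7% and all gene models 41.4%.

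Some sequences mapped to more than 1 place, as can happen among related genes of large families. Of the P450 sequences 96.8% mapped uniquely in the lateral and 82.4% in the central library, which leaves 1 and 6 sequences that did not. Of the oxygenase sequences 91.7% and 95.5% mapped uniquely, against 89.4% and 89.3% of all sequences. The 12 members with such a sequence are uncertain, since a related model could hold it.

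The other genes of the pathways were seen at similarly low counts, and the Fisher exact test called 0 of them. The words for P450 electron donors found 43 models, mostly with a cytochrome b5 domain, and 19 with a sequence held 21 lateral and 19 central sequences. Entries of this list were a fatty acid/sphingolipid desaturase with a cytochrome b5 domain on the LP sheet and cytochrome b5 isoform E and a progesterone-binding protein on the CP sheet. Enzymes that conjugate oxidised products, the UDP-glycosyltransferases and glutathione S-transferases, held 24 lateral and 24 central sequences on 22 models, with 2 LP and 10 CP entries. Of the CP entries 3 are copies of the translation factor EF1B. Terpenoid and sterol genes held 30 lateral and 34 central sequences on 40 models, with 4 LP and 0 CP entries. The LP entries were C-8,7 sterol isomerase, sterol-4alpha-methyl oxidase 1-1, an ERG4/ERG24 family protein and geranylgeranyl pyrophosphate synthase 1. Abscisic acid genes held 8 lateral and 12 central sequences, with 1 LP and 2 CP entries, and gibberellin genes 1 and 1, with 1 LP entry. For cutin and wax the words found 1 model, 3-ketoacyl-CoA synthase 10, an LP entry with 1 lateral and 0 central sequences. The words for ethylene synthesis found the ethylene-forming enzyme given above.

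Genes matched by words for cell types and for heat shock were counted beside these values. Genes of chloroplast-bearing cells held 25 lateral and 23 central sequences, with 19 LP and 9 CP entries. Words for xylem and secondary wall, which took in any laccase, fasciclin or cellulose synthase, found 17 and 11, with 7 LP and 1 CP entries. Epidermis and cuticle genes held 28 and 24, with 3 LP and 11 CP entries. Phloem genes held 2 and 3, with 2 LP and 1 CP entries. Words for pollen found 30 and 26, with 5 LP and 6 CP entries, and words for seed genes 27 and 29, with 5 LP and 17 CP entries. Most sheet entries of the pollen list are expansins, caught through the domain name Pollen allergen, so the list is no marker of pollen. The epidermis and seed lists share models annotated as lipid-transfer protein or seed storage 2S albumin, namely 2 of the 3 LP and all 11 CP entries of the epidermis list. Words for heat shock and DnaJ proteins found 121 and 131, with 5 LP and 12 CP entries. They also caught RAD-like 6 and Duplicated homeodomain-like proteins through the name of a domain. No single marker defines a pedicel, and the part of these lists in the counts and sheet rows of the members was not tested.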

How the data were processed

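The authors deposited a table with counts of mapped sequences and of uniquely mapped sequences per gene model and library, and RPKM values, that is counts scaled by gene length and library total. The p-value, FDR and test score of Kal's Z-test of lateral against central were deposited beside them, per the file headers. NOISeq lists headed CP and LP hold deposited p-value and FDR columns, and a last file holds deposited log2 ratios. The aligner, the assembler and the version of the gene models are not given in the labels or headers used here. A set of 13 further columns of library values were not used. Identifiers were looked up in the reference gene table with 0 matches, so no coordinates or sequences are given.

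Counts were tested per gene model by a two-sided Fisher exact test over all gene models with at least 10 sequences, called at a Benjamini-Hochberg adjusted p under 0.05 and 2-fold, with a pseudocount of 0.5. One library per group leaves edgeR's quasi-likelihood test without residual degrees of freedom, so edgeR's exact test used assumed coefficients of variation of 0.2 and 0.4. The Fisher script was also run on simulated data, with outcomes not given here. That run says nothing on the members, which have too few sequences to be called. Members named are those on a sheet, those with most sequences, those with the largest differences and those with a deposited ratio. The members and lists were chosen with earlier results of these data known. Lists are words searched in annotations, which can miss or add genes. The tools were matplotlib 3.10.9, R 4.3.3, edgeR 4.0.16, Python 3.11.15, scipy 1.17.1, numpy 2.4.6 and pandas 2.3.3.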

Additional observations from a re-analysis of the deposited data

How the results depend on the processing

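Of 33 alternative values, 29 stayed within set bounds of the reported ones and 4 moved, and a reversal was not scored. The bounds were a fixed fold for counts and a counting interval for sums and log2 ratios. The median log2 ratio was judged by the interval of the summed ratio, which is not its own. Requiring 2 sequences in place of 1 left 48 of the 86 members with a sequence. Requiring a difference of at least 2 sequences left 5 members with more in lateral and 5 with more in central pedicels. The share over all gene models was not counted for that limit. At a deposited FDR under 1e-06 the CP sheet kept 4 of its 7 members and the LP sheet 6 of 7. These changes follow from the stricter limits. Of the 29, 7 are tests on counts that called 0 members and could not do otherwise, since the members have too few sequences to be called, so they say nothing about stability. Among them, edgeR's exact test without a count minimum was added after seeing the data, as was the ratio of summed RPKM. The log2 ratio of the members' summed sequences, 0.03, lay between 0.02 and 0.11 under other scaling and in RPKM, within its counting interval of -0.44 to 0.50. No paired analysis was possible because each group has 1 library. With at most 5 sequences per member, depth limits every statement on a single gene.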
